A study of Mus musculus with 6 samples.

Results

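The genes described here are 30 genes of cholesterol and fatty acid synthesis, followed step by step through the pathway in a mouse mammary carcinoma line of BALB/c background, 4T1.2. They were chosen by symbol: a probe counted when the gene name in the array's own annotation equalled the symbol and the spot was not a control, and the brightest probe stood for each gene. The array names Msmo1 by its older symbol, Sc4mol. All 30 were on the array and passed the filter on dim probes, out of 15416 genes tested, and all 30 were well above background on all 6 arrays. There were 2 groups of 3 single-colour arrays. Both groups had received the pMSCV retroviral vector and puromycin selection. In the IRF7 group the vector drove expression of Irf7, a transcription factor of the interferon response, and in the base-vector group it carried no insert. Each group was then a mixture of clones grown from single cells, kept in medium with serum: 1 population per group, not a set of independently derived lines. The submitters describe 3 independent experiments, so that the p-values below measure the spread between cultures of these populations. The comparison asks how the IRF7 cells differed from the base-vector cells at rest, with no treatment added.

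Cholesterol is made from acetyl-CoA in a long chain of steps: acetyl-CoA units are joined into mevalonate, mevalonate is turned into isoprenoid units, these are condensed into squalene, and squalene is closed into lanosterol and trimmed to cholesterol. Fatty acid synthesis draws on the same acetyl-CoA, which is carboxylated, chained, elongated and desaturated. Genes of both routes are known targets of the sterol regulatory element binding proteins (SREBPs), transcription factors held in the endoplasmic reticulum with their escort Scap by the Insig proteins when sterols are plentiful, and cut free in the Golgi when sterols are scarce.

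Every level below, apart from the marker signals in this paragraph, is a scaled signal. That is the processed signal of the gene's probe as a percent of the 75th percentile signal of the same array. It compares arrays for 1 probe and does not compare genes. Differences are log2 changes, IRF7 minus base vector, from limma's fit over all genes, with Benjamini-Hochberg adjusted p and a threshold of 0.05. Irf7 itself had a scaled signal of 19.1, 17.0 and 18.0 on the base-vector arrays and 347, 356 and 344 on the IRF7 arrays, a 19.4-fold difference (log2 change 4.28, adjusted p = 3.17e-07). The 75th percentile signal of the arrays was 1148.1 to 1458.3, 54.3% to 59.7% of spots were well above background, and the levels of any pair of arrays correlated at 0.978 or more across genes. The 3 IRF7 arrays shared slide 1 and scan 1 with base-vector replicate 1, while slide 2 and scan 2 held base-vector replicates 2 and 3. Of the 7 epithelial markers examined, 5 were well above background on all 6 arrays, and Krt19 and Cldn4 on none. The marker signals given here are processed signals without scaling, so they carry the overall brightness of each array. Its 75th percentile was 1148.1 to 1291.0 on the base-vector arrays and 1292.7 to 1458.3 on the IRF7 arrays. Fat cell markers summed to an unscaled signal of 55 to 109 on the base-vector arrays and 184 to 327 on the IRF7 arrays. None of 6 was well above background throughout, and Adipoq, Cidec and Lpl were so on no array. Fabp4 was so on the 3 IRF7 arrays alone, with a signal of 23.9, 14.6 and 12.6 against 99.6, 83.0 and 107. Lep was so on the 3 IRF7 arrays and 1 base-vector array, and Plin1 on 1 IRF7 array. The 6 fibroblast markers summed to 6534 to 7393 against 3210 to 3664. Of them Pdgfra was lower in IRF7 cells (-1.21). Pdgfrb and Dcn were well above background on the 3 base-vector arrays and on none of the IRF7 arrays. Col1a2 went the other way but did not pass the test (0.30). Col3a1 was well above background on 1 base-vector array alone, and Col1a1 on no array. The myeloid markers summed to 2636 to 2971 against 3604 to 4266, with Itgam on no array. Of them Cd14 was higher in IRF7 cells (0.38), while Cd68 (0.01) and Csf1r (0.26) did not pass the test. Of the hepatocyte markers, the 3 that the array holds stayed at background throughout. Whether these differences have a part in the lipid gene results was not tested; in bulk RNA, fewer cells of a type and less RNA per cell cannot be told apart.

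Of the 30 genes, 20 were higher in IRF7 cells, 3 were lower and 7 did not pass the test. Of all genes tested 61% passed: 31.9% of the genes tested were higher and 29.1% were lower in the IRF7 cells, so a call is common in this comparison. The share called higher among the 30 (66.7%) was above that background, and the share called lower (10%) was below it. The 3 IRF7 arrays lay all above the 3 base-vector arrays for 20 genes and all below them for 3, and overlapped them for 7; among all genes tested with a value on every array 67.8% did not overlap, 35.6% lying above and 32.2% below. Most of the changes were small: the median log2 change of the 30 was 0.25, or 1.19-fold, against 0.03 for all genes tested. At least 2-fold, the differences came down to Hsd17b7, which was higher, and Tm7sf2, which was lower, while 5.87% of all genes tested changed that much. The median stood 0.22 above that of all genes under the main scaling. Without any scaling both medians were 0.20 higher (0.45 and 0.23). The main scaling subtracts 1 value per array and shifts all genes alike. It cannot change this gap, so the equal gap without scaling is no separate check. The shares called that are given above belong to the main scaling. With arrays centred on the median of all probes, 6198 of all 15416 genes tested were called, and 45.5% of these were higher. Under this centring 8 of the 30 genes kept a call as higher (Pmvk, Idi1, Cyp51, Sc4mol, Hsd17b7, Sc5d, Srebf2 and Elovl6) and 2 were called lower. The calls of Mvd, Fdps, Sqle, Lss, Nsdhl, Dhcr7, Insig2, Scap, Stard4, Fasn, Acly and Scd1 ended there, at adjusted p of 0.05 to 0.278, as did that of Srebf1, called lower (0.219).

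**Figure D1:**
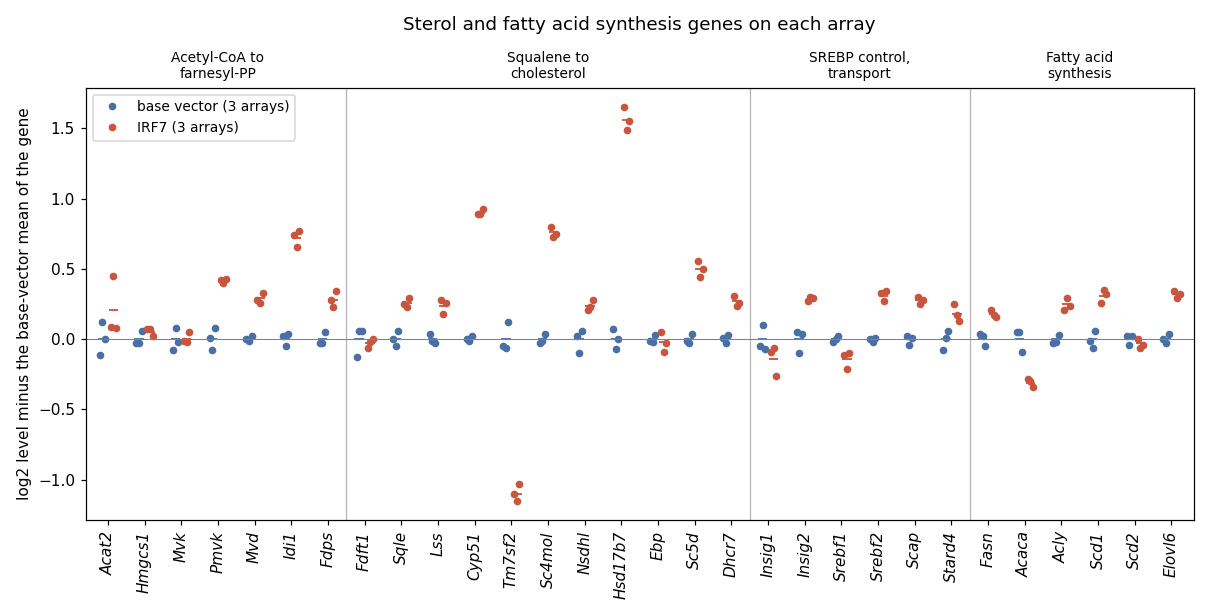
Level of each gene on each array, as the log2 level minus the gene's base-vector mean (vertical axis), for 3 base-vector arrays (blue) and 3 IRF7 arrays (red) with short bars at the group means; genes run along the horizontal axis in pathway order. Hsd17b7, Cyp51, Sc4mol and Idi1 stand above the other genes and Tm7sf2 stands alone below them, while 7 genes overlap between the groups.

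Promoter sequence is shown for the 5 genes with a log2 change of at least 0.7 in either direction and for Hmgcs1, whose window held the sterol element core. Each stretch is the 150 bases before the annotated start site, from the RefSeq promoter table of GRCm38.p6, written 5′ to 3′ on the gene's strand. Capitals mark the sterol element core TCACNCCAC, the NF-Y box CCAAT and the E-box CACGTG, each on either strand, so that a CCAAT on the other strand reads ATTGG.
Hsd17b7, chr1:169969206-169969355, minus strand: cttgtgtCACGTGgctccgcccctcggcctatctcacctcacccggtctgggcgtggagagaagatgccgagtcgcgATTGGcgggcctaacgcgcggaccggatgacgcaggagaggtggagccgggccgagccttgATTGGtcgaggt
Cyp51, chr5:4104698-4104847, minus strand: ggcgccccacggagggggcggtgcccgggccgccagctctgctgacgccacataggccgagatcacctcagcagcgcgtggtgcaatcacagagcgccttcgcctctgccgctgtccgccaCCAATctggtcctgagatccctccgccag
Sc4mol, chr8:64733579-64733728, minus strand: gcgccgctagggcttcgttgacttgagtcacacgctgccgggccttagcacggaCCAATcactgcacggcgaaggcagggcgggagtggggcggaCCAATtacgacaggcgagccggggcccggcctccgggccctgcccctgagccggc
Idi1, chr13:8885456-8885605, plus strand: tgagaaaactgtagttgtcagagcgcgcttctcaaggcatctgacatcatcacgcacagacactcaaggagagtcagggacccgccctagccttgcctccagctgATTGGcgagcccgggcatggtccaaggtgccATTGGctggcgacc
Tm7sf2, chr19:6067851-6068000, minus strand: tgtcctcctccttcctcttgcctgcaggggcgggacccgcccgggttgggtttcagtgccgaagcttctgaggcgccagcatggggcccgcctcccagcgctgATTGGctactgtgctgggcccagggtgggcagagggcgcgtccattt
Hmgcs1, chr13:119690201-119690350, plus strand: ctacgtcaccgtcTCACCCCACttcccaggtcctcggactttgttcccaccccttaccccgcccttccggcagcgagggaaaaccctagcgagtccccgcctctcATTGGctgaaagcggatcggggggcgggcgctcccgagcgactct
A CCAAT box lay in each of the 6 stretches, that of Tm7sf2, which fell, included. The table held a window of 250 bases before to 50 after the start site for 24 of the 30 genes. In these windows CCAAT was found in 20 of 24 genes (83.3%), against 41.1% of the 27025 genes in the table. The GC box GGGCGG was also found in 20 (83.3%), against 38.2%. The table holds more genes than the 15416 tested here, and the shares among the tested genes alone were not computed. The E-box was in 5 of 24 (20.8%), against 8.09%, among them Hsd17b7. The sterol element core was found in Hmgcs1 alone, at -137 to -129 from the start site (4.17% of 24, against 1.44%). Only the exact letters TCACNCCAC were searched, so a window without them may hold a variant of the element. The core of the interferon-stimulated response element was found in Ebp alone (4.17%, against 3.99%). A match describes the letters in a window; binding was not measured.

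Of the 7 genes that lead from acetyl-CoA to farnesyl diphosphate, 4 rose, none fell and 3 did not pass, with a median log2 change of 0.28. Idi1, the isomerase that interconverts the pair of isoprenoid building blocks, had a scaled signal of 343, 326 and 349 on the base-vector arrays and 565, 534 and 577 on the IRF7 arrays. Each IRF7 array lay well above each base-vector array, and the difference was 1.65-fold (log2 change 0.72, SE 0.0443, adjusted p = 6.13e-05). Pmvk, which adds the second phosphate to mevalonate, read 588, 554 and 618 against 782, 770 and 790. The groups did not overlap, and the gene was 1.33-fold higher in IRF7 cells (log2 change 0.41, adjusted p = 0.000613). Mvd, the decarboxylase after it, read 45.6, 45.3 and 46.5 against 55.4, 54.6 and 57.4, a separation of 1.22-fold (adjusted p = 0.00058). Fdps, which joins isoprenoid units into farnesyl diphosphate, read 522, 520 and 550 against 644, 622 and 673. It too was 1.22-fold higher (adjusted p = 0.00209), with no overlap.

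The steps at the head of the same route overlapped between the groups. Hmgcs1, the cytosolic synthase that makes HMG-CoA, read 482, 483 and 514 against 518, 518 and 498, a log2 change of 0.05 (95% interval -0.04 to 0.15, adjusted p = 0.278). Its other probes, both much dimmer, gave 0.39 (adjusted p = 0.00522) and 0.61 (adjusted p = 0.0604), so the gene's call depends on the probe; as the mean of its probes it was higher (0.35, adjusted p = 0.00922). Mvk, the first mevalonate kinase, read 62.6, 69.7 and 65.2 against 65.3, 65.0 and 68.4, and its interval ran from -0.11 to 0.13 around a log2 change of 0.01. Acat2, the thiolase that joins the first acetyl-CoA units, read 27.3 to 32.1 against 31.5, 40.2 and 31.2. IRF7 replicate 2 alone was high, and the interval of the difference was wide, from -0.09 to 0.50.

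Of the 11 genes from squalene to cholesterol, 8 rose, 1 fell and 2 did not pass, with a median log2 change of 0.25 and the widest spread of the 4 groups, from -1.10 to 1.57. Hsd17b7, a reductase that acts on the sterol ketone left when methyl groups are removed from the ring, read 72.0, 65.4 and 68.7 on the base-vector arrays and 216, 193 and 201 on the IRF7 arrays. It was the largest rise of the 30, at 2.96-fold (log2 change 1.57, SE 0.0577, adjusted p = 1.03e-05), and its dimmer second probe gave 1.58. The probe lay at chr1:169928936-169928995 on the minus strand in the mm7 coordinates of the files. Cyp51, the demethylase that starts the trimming of lanosterol, read 30.7, 30.7 and 31.2 against 57.1, 57.2 and 58.7. The arrays of each group were almost level, 1.87-fold apart (log2 change 0.90, SE 0.0273, adjusted p = 5.76e-06), and its other probes gave 1.07 and 0.93. Sc4mol, the methyl sterol oxidase, read 795, 808 and 837 against 1413, 1347 and 1361, a 1.69-fold rise (log2 change 0.76, SE 0.035, adjusted p = 2.29e-05).

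Tm7sf2 went the other way. It encodes the sterol reductase that acts directly after Cyp51, a step that Lbr also catalyses. Its scaled signal was 155, 153 and 174 on the base-vector arrays and 74.8, 72.1 and 78.2 on the IRF7 arrays. The groups were far apart, with the IRF7 cells 2.14-fold lower (log2 change -1.10, SE 0.0623, adjusted p = 4.47e-05). The single probe for it lay at chr19:5957688-5957747 on the minus strand in mm7, so no second probe measured it. Lbr had a log2 change of 0.21 (adjusted p = 0.00479). Tm7sf2 kept its call under every scaling run, while that of Lbr ended with median centring (0.17, adjusted p = 0.216).

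The other steps after squalene moved less. Sc5d, the desaturase late in the route, read 192, 189 and 199 against 285, 262 and 273, a 1.41-fold rise with separate groups (log2 change 0.50, adjusted p = 0.000199). Dhcr7, which reduces the last intermediate to cholesterol, read 856, 833 and 870 against 1053, 1003 and 1022, or 1.2-fold higher (adjusted p = 0.000989). Sqle, the squalene epoxidase, read 606, 585 and 634 against 721, 711 and 740, or 1.19-fold higher (adjusted p = 0.00257). These groups too stood apart. Lss, which closes the ring to lanosterol, read 91.7, 89.1 and 87.9 against 108, 102 and 107 (log2 change 0.24, adjusted p = 0.00238), and Nsdhl, a dehydrogenase of the demethylation, read 82.0, 75.4 and 84.3 against 93.0, 94.8 and 98.2 (0.24, adjusted p = 0.00781). With the slide as a block the call of Nsdhl ended (adjusted p = 0.0771), while that of Lss stayed past the threshold (adjusted p = 0.0359). Within slide 1 alone, where the base-vector group has 1 array, the log2 changes were 0.20 for Lss and 0.22 for Nsdhl. Fdft1, the squalene synthase at the branch point towards sterols, read 242, 275 and 274 against 254, 260 and 263, and Ebp, the sterol isomerase, read 1057, 1046 and 1089 against 1103, 996 and 1043. Both overlapped, at a log2 change of -0.02 each, with intervals of -0.17 to 0.12 for Fdft1 and -0.14 to 0.09 for Ebp.

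**Figure D2:**
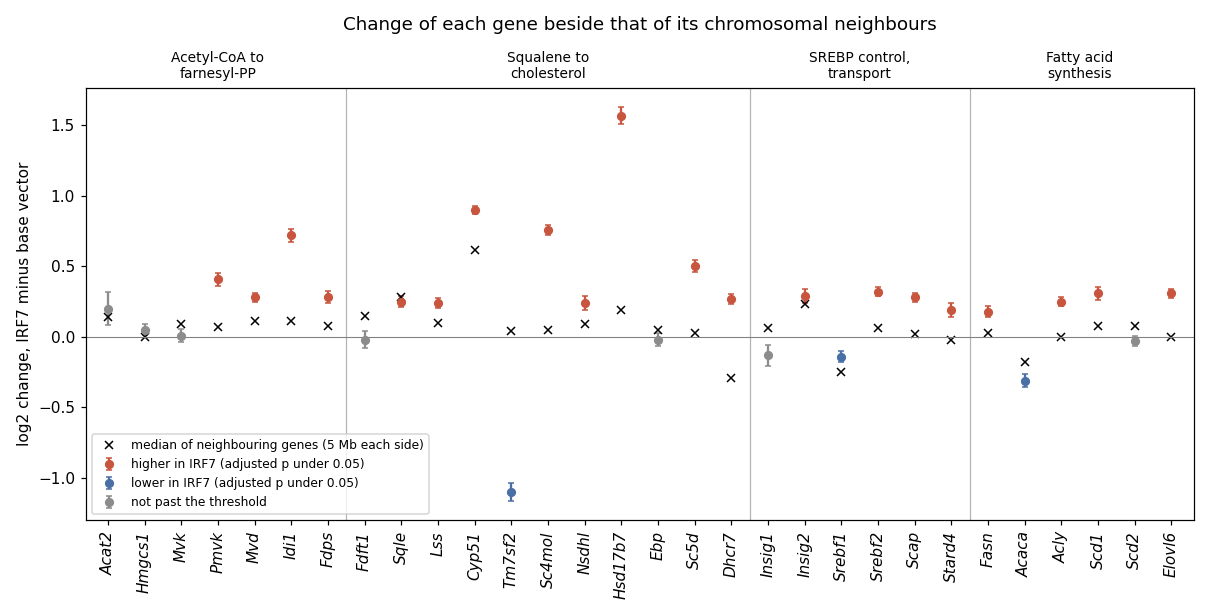
Log2 change of each gene, IRF7 minus base vector (vertical axis, circles with standard errors), in pathway order along the horizontal axis and coloured by call, with a cross for the median log2 change of the other tested genes within 5 Mb on each side. Tm7sf2 (-1.10) and Hsd17b7 (1.57) lie far from the crosses at 0.04 and 0.19, while the cross beside Cyp51 is itself at 0.62.

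Each gene was also set beside its chromosomal neighbours, whose changes differed between stretches of the genome. Neighbours were the other tested genes within 5 Mb on each side, 13 to 208 per gene, in the GRCm38.p6 gene table. Their median log2 change ran from -0.29 to 0.62. Of the 30 genes 22 were above their neighbours' median and 8 below it, with a median difference of 0.16. Cyp51 lies in the first part of chromosome 5, where 23 of its 26 neighbours were higher and 0 lower in IRF7 cells, with a median of 0.62, so its own 0.90 stood 0.28 above them. Hsd17b7 on chromosome 1 stood 1.38 above a median of 0.19 over 71 neighbours. Sc4mol on chromosome 8 stood 0.71 above its 20 neighbours, and Idi1, which the reference table places on chromosome 13, 0.61 above its 22. Tm7sf2 on chromosome 19 lay 1.14 below the median of 0.04, and 0.481% of its 208 neighbours were at or below it. Dhcr7 rose on chromosome 7, where its 100 neighbours had a median of -0.29, with 64 lower and 9 higher. Srebf1 and Acaca, both on chromosome 11 and both lower, had neighbours at -0.25 and -0.18, and Sqle (0.25) stood level with neighbours at 0.28. What part a shifted stretch has in the change of a gene within it was not tested.

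Of the 6 genes that sense or carry sterols or form the SREBP system, 4 rose, 1 fell and 1 did not pass, with a median log2 change of 0.23. Srebf2, which encodes the SREBP that mainly drives cholesterol genes, read 1197, 1181 and 1202 on the base-vector arrays and 1499, 1442 and 1517 on the IRF7 arrays. The groups were separate on this probe, 1.24-fold apart (log2 change 0.32, SE 0.0311, adjusted p = 0.00037). Its other probes differed among themselves. They gave 0.10 (called higher, adjusted p = 0.0281), 0.05 (not past the threshold, adjusted p = 0.857) and -0.43 (called lower, adjusted p = 0.043). The mean of its probes came to 0.01 (adjusted p = 0.926). Scap, the escort of the SREBPs, read 1303, 1242 and 1289 against 1576, 1526 and 1554, a 1.21-fold rise (adjusted p = 0.000667). Insig2, a protein that retains Scap in the endoplasmic reticulum, read 516, 465 and 515 against 603, 613 and 609, a 1.22-fold rise (adjusted p = 0.00336). Both had separate groups, and the second kept probe of Insig2 gave 0.42 (adjusted p = 0.0258).

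Srebf1, whose products drive mainly fatty acid genes, read 2489, 2520 and 2570 against 2340, 2179 and 2358. The IRF7 arrays were all lower, by a small margin: 1.1-fold (log2 change -0.14, adjusted p = 0.0261). This call ended within slide 1 (-0.12, adjusted p = 0.212), and when any 1 base-vector array or IRF7 replicate 2 was left out (adjusted p = 0.0508 to 0.0707), and the direction turned without scaling (0.06, adjusted p = 0.622). Insig1, the sterol-responsive partner of Insig2, read 48.6, 54.1 and 48.1 against 47.3, 48.2 and 42.0 and overlapped (log2 change -0.13, interval -0.32 to 0.05). Stard4, a carrier of cholesterol between membranes, read 186, 199 and 205 against 234, 222 and 216. Its groups were apart by a narrow gap (log2 change 0.19, adjusted p = 0.0214), and the call ended without base-vector replicate 1, IRF7 replicate 1 or IRF7 replicate 2 (adjusted p = 0.0511, 0.0651 and 0.0538).

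Of the 6 fatty acid genes, 4 rose, 1 fell and 1 did not pass, with a median log2 change of 0.22. Acly, which makes cytosolic acetyl-CoA from citrate, read 181, 182 and 188 against 214, 224 and 217, a 1.19-fold rise (adjusted p = 0.00125). Its second probe, much dimmer, gave 0.15, which did not pass. Acaca, the carboxylase that commits acetyl-CoA to fatty acids, read 109, 109 and 99.5 against 87.2, 85.6 and 83.7. It was the fatty acid gene that fell, 1.24-fold (log2 change -0.31, adjusted p = 0.00226). Its other probes gave -0.60 (adjusted p = 0.0118), -0.26 and -0.01, the last pair not past the threshold. The mean of its probes came to -0.30 and did not pass (adjusted p = 0.0643). Without scaling the change was -0.11 (adjusted p = 0.367). Fasn, the synthase that builds the chain, read 11633, 11422 and 10891 against 13112, 12694 and 12650. The groups were separate but only 1.13-fold apart (log2 change 0.18, adjusted p = 0.00704), and the call ended with the slide as a block (0.14, adjusted p = 0.0899). The second probe of Fasn gave 0.47 (adjusted p = 0.000252).

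Downstream of the synthase, Elovl6, which lengthens saturated chains, read 1157, 1131 and 1187 against 1466, 1412 and 1438, a 1.24-fold rise (adjusted p = 0.000454). Scd1, a desaturase that makes monounsaturated chains, read 650, 628 and 683 against 782, 836 and 818, also 1.24-fold higher (adjusted p = 0.00175). Both had separate groups. Scd2, the neighbouring desaturase gene, read 5625, 5367 and 5597 against 5548, 5304 and 5390 and overlapped (log2 change -0.03, interval -0.12 to 0.05). Scd1 and Scd2 are closely related, and how far a probe of the one reads the other was not tested.

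The 30 genes hold 3 pairs of close relatives that differed in call, and the difference within an array needs no scaling between arrays. The log2 difference Srebf2 minus Srebf1 was 0.46 larger in the IRF7 arrays than in the base-vector arrays, Insig2 minus Insig1 0.42 larger, and Scd1 minus Scd2 0.34 larger. The pairs are given with their calls known, as a description with no test, and the Srebf2 difference is that of its brightest probe.

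**Figure D3:**
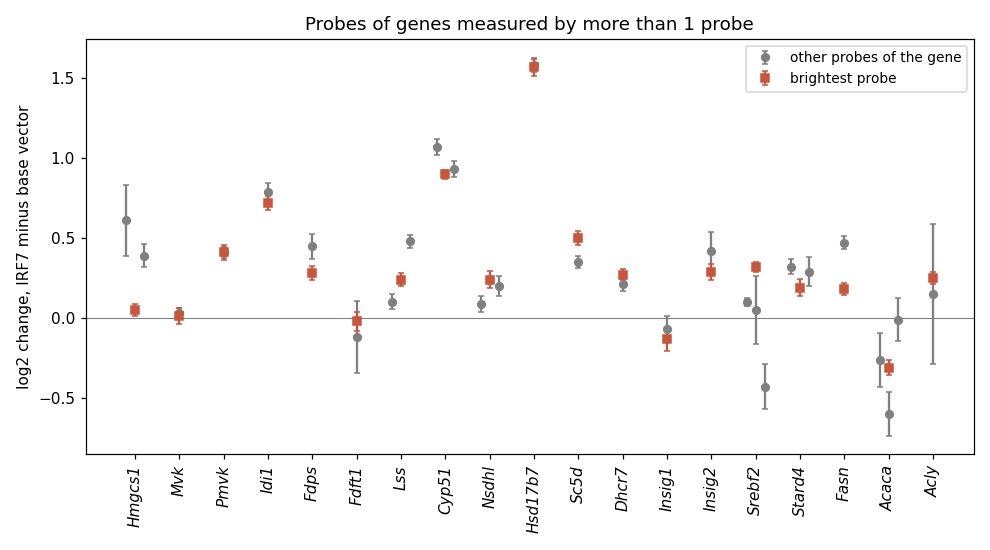
Log2 change with standard error, IRF7 minus base vector (vertical axis), of every kept probe of the 19 genes with more than 1 probe (horizontal axis), with the brightest probe of each gene as a red square and the others as grey circles. The probes of Hsd17b7, Cyp51, Idi1 and Pmvk lie close together, while those of Srebf2 span 0.32 to -0.43 and those of Hmgcs1 0.05 to 0.61.

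By number of probes, 19 genes had more than 1 and 11 had a single one. Of the 30 further probes 28 passed the filter. Of the 23 that belonged to a called gene, 16 gave the same call, 6 did not pass and 1, of Srebf2, was called the other way. Of all probes kept, 58.7% passed the threshold. Of the 5 that belonged to a gene not called, 1, of Hmgcs1, was called.

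Both groups met on slide 1 alone. Within slide 1, base-vector replicate 1 stands alone against the 3 IRF7 arrays and is assumed to vary as they do. The median log2 change of the genes described here was 0.26 in this contrast, against 0 for all genes tested. A fixed block for the slide over all 6 arrays rests on this same contrast and gave the same estimates. With the block, 18 of the genes described here were called higher and 2 lower. Of all 15416 genes tested it called 7127, and 51.2% of these were higher. The larger changes kept their size within slide 1: 1.5 for Hsd17b7, 0.91 for Cyp51, 0.79 for Sc4mol, 0.70 for Idi1, 0.51 for Sc5d and -1.05 for Tm7sf2, each past the threshold. Base-vector replicates 2 and 3 have no IRF7 array on their slide, so slide 2 gives no value.

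Other genes of lipid metabolism, in lists set by function, did not all move with the 30. Among 12 further genes of sterol and isoprenoid synthesis 6 rose, 3 fell and 3 did not pass, with a median log2 change of 0.09. Pdss1, which builds the side chain of coenzyme Q, rose (0.68, adjusted p = 0.000218), as did Cyb5r3, an electron donor to sterol enzymes (0.21, adjusted p = 0.00229). Among 18 genes of sterol uptake, SREBP cleavage and trafficking 11 rose, 3 fell and 4 did not pass, with a median of 0.22. Lipa, the lysosomal lipase that frees cholesterol from its esters, rose 1.56-fold, and Npc2, which carries cholesterol out of the lysosome, 1.33-fold. Erlin1, a protein of endoplasmic reticulum membranes, read 340, 331 and 360 against 667, 661 and 709, a 1.98-fold rise (adjusted p = 2.53e-05).

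Among 10 tested genes of the liver X receptor, oxysterol and efflux group 3 rose, 6 fell and 1 did not pass, with a median of -0.21. Both liver X receptor genes were lower, Nr1h2 at -0.61 (adjusted p = 3.05e-05) and Nr1h3 at -0.63 (adjusted p = 0.000163), as was the corepressor Ncor1 (-0.33, adjusted p = 0.000401; -0.14 and not past the threshold without scaling, adjusted p = 0.254), while the sterol exporter Abcg1 was 1.89-fold higher (adjusted p = 2e-05). Of 33 further genes of fatty acid and glycerolipid synthesis 9 rose, 13 fell and 11 did not pass, with a median of 0.02. The shares higher and lower were 27.3% and 39.4%, beside 31.9% and 29.1% of all genes tested. The desaturase Fads1 (-0.58) and the carboxylase Acacb (-0.44, a call that ended without scaling at an adjusted p of 0.0613), which regulates fatty acid entry into mitochondria, fell, and the elongation enzyme Hacd2 (0.83) and the transcription factor Mlx (0.76) rose. Of 21 genes of fatty acid oxidation 2 rose, 13 fell and 6 did not pass, with a median of -0.22. Cpt1a, which admits fatty acids to mitochondria, read 394, 386 and 408 against 249, 256 and 256, and its log2 change was -0.64 (adjusted p = 3.41e-05). Its relative Cpt1c changed by -1.71 and the electron carrier Etfb by -0.68. These counts depend on the scaling. Without it, 3 efflux genes were higher and 2 lower, and 14 of the fatty acid and glycerolipid genes were higher and 3 lower. Of the oxidation genes 4 were higher and 4 lower. Among all genes called, 79.1% were higher without scaling, against 52.3% under the main scaling. The medians of the 3 lists without scaling were -0.01, 0.22 and -0.02, which differed from that of all genes by -0.24, -0.01 and -0.25. These gaps are the same under the main scaling by arithmetic, since it shifts all genes alike. With median centring the oxidation list had 2 higher and 8 lower, beside 6198 of all 15416 genes called, 45.5% of them higher.

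**Figure D4:**
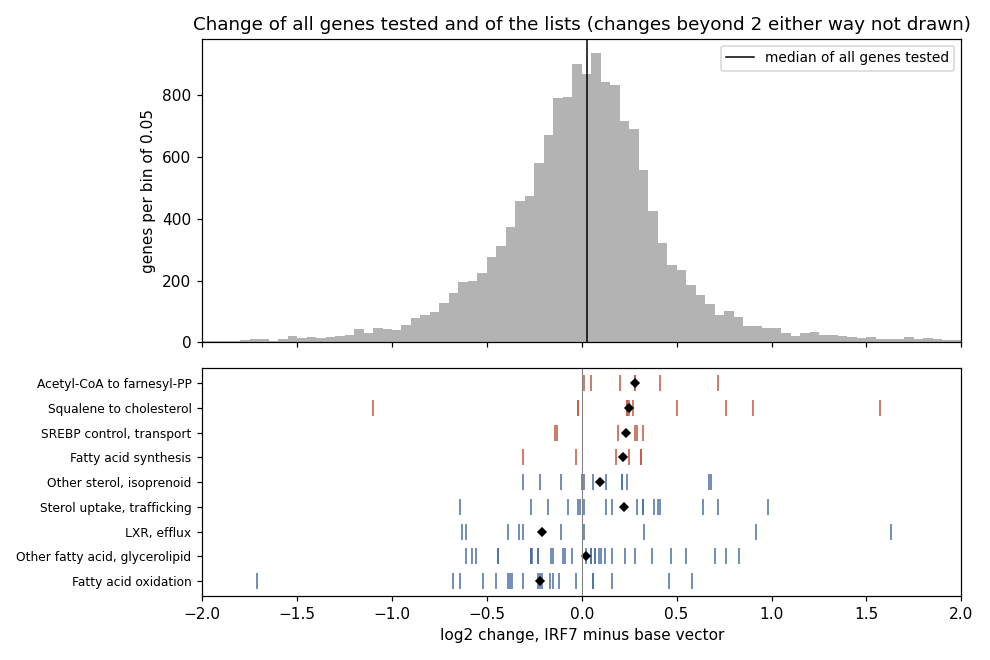
Upper panel: number of genes per bin of log2 change, IRF7 minus base vector (horizontal axis), for all genes tested, with a line at their median of 0.03. Lower panel: 1 tick per gene for the 4 groups of the 30 genes (red) and 5 other lists (blue), with diamonds at the medians, which lie between 0.22 and 0.28 for the 4 groups and at -0.22 for fatty acid oxidation.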

How the data were processed

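Total RNA labelled with Cy3 was hybridised to 6 single-colour Agilent arrays, 3 per group, with groups and replicate numbers taken from the sample titles. The deposited files give a linear intensity per spot, from which the local background had been subtracted, with no scaling between arrays, per the file headers. The submitters' processing notes name Agilent Feature Extraction 9.5.3.1. The authors' value table held the same intensity values (largest difference 0).

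Of 45018 spots, 1639 controls and 111 to 121 outlier-flagged spots per array were left out. The level tested, computed here, was log2 of the deposited intensity minus that of the array's 75th percentile. Spots of a probe were averaged (41174 probes). A probe was kept when at least 3 of 6 arrays showed it well above background (23522 probes), and the brightest stood for a gene. The reference gene table named 22951 probes by accession, 6659 by symbol and 3109 by older symbol; 8455 kept the array's name. The test was limma 3.58.1 (R 4.3.3) with lmFit and eBayes over all 6 arrays, adjusted over 15416 genes, with 4 residual and 1.64 prior degrees of freedom. The number of arrays limits the precision.

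The text names all 30 genes, Irf7, and up to 4 genes of each other list with the smallest p (4 of these are not reported here, but remain in the counts); Lbr was added after its value was seen, because it shares a step with Tm7sf2. The genes and lists were chosen with earlier results of these data known. Neighbours were placed with the GRCm38.p6 table, since the array places Hmgcs1 on unplaced sequence and Idi1 on chromosome 2. Probe positions are mm7; exons or UTRs under probes were not annotated here. Promoter motifs were searched on both strands. Tested on simulated data drawn from these arrays, with 50 changed genes per size among 15413 and most genes unchanged, 46% of genes changed by 0.25 (log2) passed, 76% of those changed by 0.5, 90% by 1 and 94% by 2; in the real data 61% of all genes passed, so these rates do not describe it. Alternatives were normexp background correction (offset 50), other scalings, filters, probe rules and eBayes settings, slide and replicate blocks, and each array left out. Python 3.11.15, pandas 2.3.3, scipy 1.17.1 and matplotlib 3.10.9 were also used.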

Additional observations from a re-analysis of the deposited data

How the results depend on the processing

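Over 20 alternative settings, the 30 genes gave 600 values. Of these 560 kept their side of the threshold, 33 lost the call, 5 gained one and 2 reversed the direction of a called gene. For genes called in neither run the direction was not compared. Some of them changed sign, such as Fdft1, at -0.02 in the main run and 0.18 without scaling. The reversals were Srebf1 without scaling (0.06) and Srebf2 with the probe of largest spread (-0.43); in the first the arrays' overall brightness is left in, in the second another probe is read. Without scaling, 1 gene was lower, and 79.1% of all called genes were higher, against 52.3%. Quantile normalization called 5 lower, adding Ebp (-0.10) and Scd2 (-0.12). Median centring over all probes called 8 higher, and 6198 genes in all. The median change of the 30 was 0.22 there, against 0.25. Standard errors were larger there for all but Acat2, for example 0.107 against 0.0399 for Sqle. The cause of the fewer calls was not tested. Centring on probes well above background on all arrays, an alternative chosen after seeing the data, called 20 higher and 3 lower. Keeping dim probes, 14504 of 27670 genes were called, against 9398. Leaving out each array in turn gave 19 to 20 higher, 2 to 3 lower and 8266 to 9072 calls among all genes. Acly lost its call under both other probe rules, and Acaca and Srebf2 lost theirs with the mean of all kept probes.

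The replicate numbers were not taken to pair the arrays: deviations of same-numbered arrays correlated at 0.04, 0.17 and 0.23, although each array correlated best with its own number. With the replicate number as a block, 19 genes were higher and 3 lower, and 9738 of all genes were called; the call of Stard4 ended (adjusted p = 0.0662).

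Probes measure short stretches of a transcript, and forms that a probe does not cover were not measured.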
